A study of Drosophila melanogaster with 4 samples.

Results

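Isolated strong peaks of ordinary width are the regions of trimethylated lysine 4 of histone H3 (H3K4me3) that stood alone along the chromosome arms of white prepupae of Drosophila melanogaster. They were chosen from the authors' single peak list for the series, on FlyBase release 5, by a score of 200 or more, a width of at least 1500 and under 5000 bp, and a gap of more than 5000 bp to both the previous and the next peak of any score, on 2L, 2R, 3L, 3R, 4 and X. There were 197 of them among 7743 peaks in the list and 7245 peaks on the 6 arms. The study made 2 libraries of chromatin immunoprecipitated with an affinity-purified rabbit polyclonal antibody, raised against a synthetic peptide of human histone H3 carrying the mark, and 2 libraries of input DNA. All 4 came from 1 strain, Y cn bw sp, at 1 stage, so the series holds no contrast of genotype, treatment or time. The labels give this strain the eye colour alleles cn[1] and bw[1], the body colour allele y[1], together with sp[1], Rh6[1], GstD5[1], MstProx[1], lab[R4.2], LysC[1], CG33964[R4.2], Gr22d[1], Gr22b[1] and oc[R3.2]. The sex and number of the animals are not given in the sources used here.

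H3K4me3 is placed by methyltransferases of the Set1/COMPASS and Trithorax families, mostly on the nucleosomes just downstream of the start sites of transcribed genes, and is therefore used as a map of active promoters. Neighbouring genes of the fly often lie close together, many of them head to head, so that their promoter marks fall near one another. The white prepupa is the short stage at which a pulse of the steroid hormone ecdysone ends larval life. A profile of such animals averages over larval tissues on their way to destruction and over the imaginal tissues that build the adult.

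The list gives 1 score per peak and no value per library. No spread between replicates could be computed, the depth of the libraries is unknown, and no peak could be set beside its level in input DNA. The score is the authors' own and its scale is not named, so it serves here only to order and select peaks of this list. Because score, width and gaps chose the peaks, all values below are descriptions without a test. The 95% intervals of shares are exact Clopper-Pearson intervals over peaks. They cover counting error only, and neighbouring peaks are not independent.

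Most strong peaks, like most peaks of any score, had a close neighbour. Of the 7245 peaks on the arms 2578 (35.6%) scored 200 or more, and 1961 (76.1%) of these had a width from 1500 to under 5000 bp, which is why this width is called ordinary. Isolated peaks numbered 197 of the 1961, or 10.0% (8.75 to 11.5), against 14.9% (14.1 to 15.7) of all arm peaks, which include them. They made up 2.54% of the whole list, and 18.3% of the 1077 isolated arm peaks of any score or width. Of the 262 isolated peaks scoring 200 or more, a further 41 were narrower than 1500 bp and 24 were 5000 bp or wider.

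Nearly all of the other 1764 strong peaks of ordinary width had a close neighbour. In 913 of them (51.8%) a peak lay within 5 kb on both sides, and in 848 (48.1%) on 1 side. The remaining 3 were the first or last peak of an arm and had no second gap to measure. Of these, 2 counted as isolated when such end peaks were kept. Where the close peak stood on 1 side only, it scored 200 or more in 374 of 848 cases (44.1%) and under 50 in 272 (32.1%). Only the adjacent peak was scored here, and further peaks may lie within 5 kb behind it. The 272 cases therefore do not count the strong peaks kept out of the isolated class by 1 weak peak alone. When gaps were measured only to peaks scoring 50 or more, 383 strong peaks of ordinary width were isolated, the original 197 and 186 others.

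The isolated peaks covered nearly the whole range of strength of their class. Their scores ran from 202 to 575 with a median of 301 (quartiles 248 and 347), against a median of 306 (quartiles 251 and 371) and a maximum of 629 in the 1764 that were not isolated. Scores of 200 to under 250 were found in 50 isolated peaks, 250 to under 300 in 47, 300 to under 350 in 52, 350 to under 400 in 18 and 400 to under 450 in 20. Above this the class thinned out, with 8 isolated peaks from 450 to under 500 and 2 at 500 or more. The isolated share was 10.5% (7.90 to 13.6) in the lowest of these bands and 13.0% (9.84 to 16.7) from 300 to under 350. At 500 or more it was 3.33% (0.406 to 11.5), or 2 of 60 peaks, an interval that overlaps those of the lower bands.

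At the median, isolated peaks were narrower than the strong peaks of ordinary width that were not isolated. The isolated peaks had a median width of 2206 bp (quartiles 1866 and 2790), and those not isolated 2440.5 bp (quartiles 2010.5 and 3252.5). The median was lower for isolated peaks on each of the 5 large arms. It was also lower in each of the 5 bands of score, for example 2027.5 bp in isolated peaks against 2189 bp in the others from 200 to under 250, and 2448 bp against 2974.5 bp at 400 or more. The isolated share was 14.2% (11.3 to 17.5) at widths of 1500 to under 2000 bp, 10.8% (8.31 to 13.7) from 2000 to under 2500 bp and 8.15% (5.39 to 11.7) from 2500 to under 3000 bp. It was 7.80% (4.53 to 12.4) from 3000 to under 3500 bp, 5.03% (2.20 to 9.67) from 3500 to under 4000 bp and 7.17% (4.16 to 11.4) in the widest band. Isolation was therefore most frequent among the narrowest peaks of the class, by point estimate, although neighbouring bands overlap in their intervals. Widths and gaps come from the same peak call, and the difference in width was not tested.

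**Figure D1:**
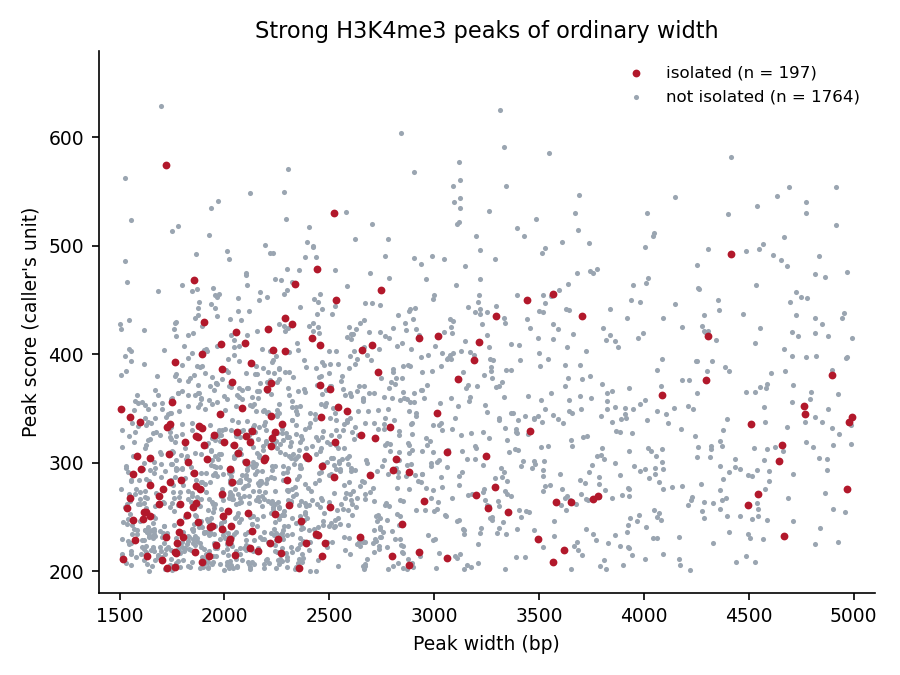
Score (vertical axis, in the caller's unit) against width (horizontal axis, in bp) for the 197 isolated peaks (red) and the 1764 strong peaks of ordinary width that were not isolated (grey). The red points reach a score of 575 and the grey ones 629, and the red points are densest below 2500 bp.

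**Figure D2:**
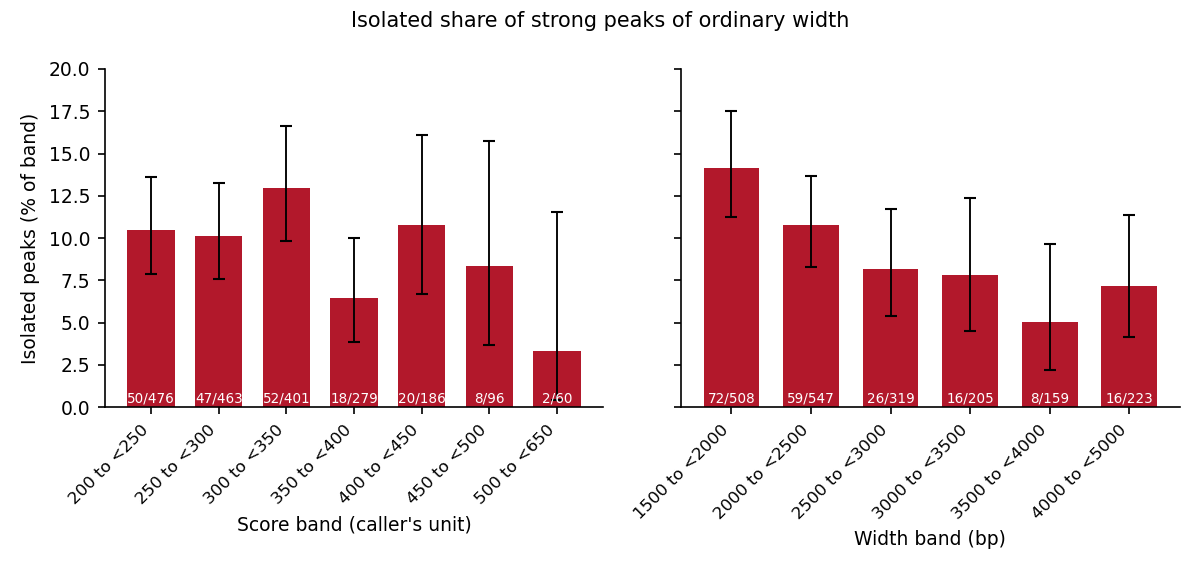
Share of isolated peaks in bands of score (left, caller's unit) and of width (right, bp) among the 1961 strong peaks of ordinary width, with bars from 0, exact 95% Clopper-Pearson intervals and the counts in each bar. The share was 14.2% in the narrowest width band and 5.03% to 10.8% in the wider ones.

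Within the isolated peaks, score and width were only loosely related. Spearman's rho was 0.24 over the 197 isolated peaks and 0.25 over the 1764 others, and Pearson's r on log10 values was 0.21 and 0.25. Both measures come from the same peak call and share its depth. The rule also cut both to a limited range, which can lower a correlation, so these values only describe the chosen peaks. The median width was 2026 bp in isolated peaks scoring 250 to under 300 and 2448 bp in those scoring 400 or more. A strong isolated peak could be narrow or wide, as the members with the highest scores show.

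The isolated peak with the highest score lay on 3R at 538368 to 540088, with a score of 575 and a width of 1721 bp. It stood 0.539 Mb from the centromeric end of the mapped span, 51.7 kb from the previous peak and 17.2 kb from the next, which was a weak peak of 253 bp scoring 16.7. The second on 3R, at 23430775 to 23433213 (2439 bp), scored 479. Peaks of 11.8 and 7.28 in score flanked it at 9.16 and 26.4 kb, so that both top peaks of 3R had a very weak peak as their nearest neighbour. On 2R a score of 530 was reached by the peak at 4125198 to 4127718 (2521 bp), whose gaps measured 62.0 and 180.7 kb. The second on 2R, at 18262536 to 18264950 (2415 bp), scored 415 and stood 5.69 kb from its nearest neighbour. These 2 differ widely in isolation although both pass the same rule.

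On 3L the top score of 492 belonged to a wide peak, 4416 bp at 22731838 to 22736253, within the last 1.80 Mb before the centromeric end. The second on 3L, at 17547226 to 17550930 (3705 bp), scored 436. Scores on 2L were close together, 456 at 17408944 to 17412510 (3567 bp) and 450 at 15113428 to 15116870 (3443 bp). The second of these had 132 kb without a peak on its right. On X the top score, 459, was that of the peak at 1407066 to 1409809 (2744 bp), which had a broad peak of 9112 bp, scoring 394, at 29.7 kb. The second on X, at 10790687 to 10793391 (2705 bp), scored 409. Chromosome 4, the small and largely heterochromatic chromosome, held a single isolated peak among its 5 strong peaks of ordinary width, at 1324644 to 1327522 (2879 bp, score 291, gaps of 5.83 and 8.26 kb).

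The widest isolated peaks approached the upper limit of the class and did not lead in score. They measured 4993 bp on 2R at 15714129 to 15719121 (score 343), 4978 bp on 3R at 20156459 to 20161436 (337) and 4896 bp on X at 4541873 to 4546768 (381). On 2L the widest had 4644 bp at 3512556 to 3517199 (302), and on 3L 4545 bp at 15228851 to 15233395 (271). The narrowest measured 1506 bp on 3R at 17646963 to 17648468 (score 350), 1516 bp on X at 6224995 to 6226510 (212) and 1548 bp on 3L at 19971474 to 19973021 (267). On 2R the narrowest had 1562 bp at 1559225 to 1560786 (289), and on 2L 1575 bp at 9251578 to 9253152 (229). The scores of these narrowest members, from 212 to 350, overlap those of the widest, from 271 to 381.

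Peaks lay on both sides of each border of the rule. Within 10 units of the score limit, 6 isolated peaks of ordinary width scored 202 to 209 and 11 just below it scored 190 to 199. Within 100 bp of the lower width limit, 10 isolated strong peaks measured 1506 to 1597 bp and 20 just below it measured at least 1409 bp. Within 500 bp of the upper limit, 11 measured 4511 to 4993 bp and 4 measured 5036 to 5431 bp. At the gap limit, 6 strong peaks of ordinary width had their nearest peak at 5037 to 5452 bp, and 16 whose other gap passed had it at 4510 to 4963 bp.

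Most isolated peaks stood well beyond the required 5 kb. The distance to the nearest peak had a median of 11.7 kb (quartiles 7.77 and 22.4, highest 154 kb). It was 10 kb or less in 79 isolated peaks, between 10 and 20 kb in 58, between 20 and 50 kb in 42 and above 50 kb in 18. The larger of the 2 gaps had a median of 39.0 kb and exceeded 100 kb in 39 isolated peaks. The gaps to the left and right had medians of 21.4 and 22.1 kb with a Spearman's rho of 0.09 over the 197 peaks. Both gaps were used by the rule and start at 5 kb, so this value only describes the chosen peaks.

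**Figure D3:**
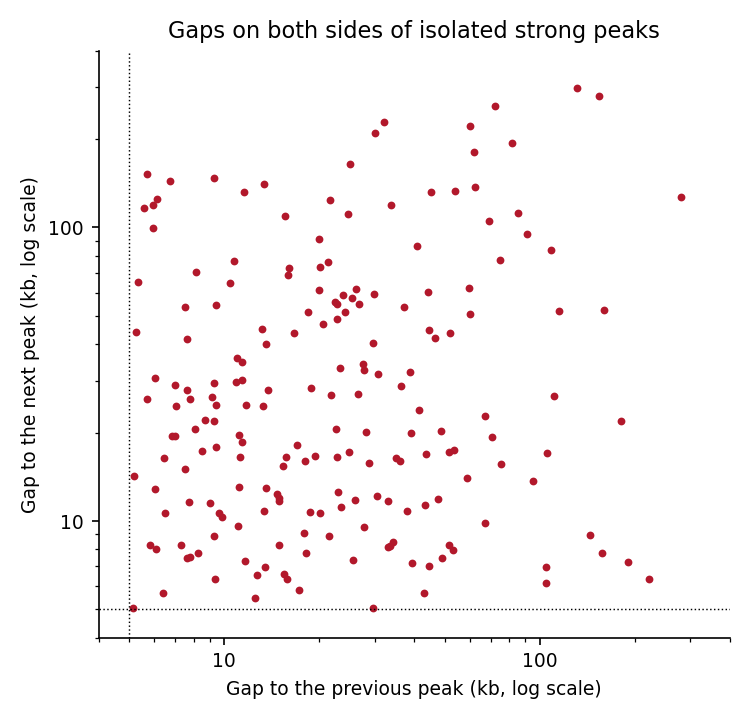
Gap to the next peak (vertical, kb) against gap to the previous peak (horizontal, kb) for the 197 isolated peaks, both on log scales, with dotted lines at the 5 kb limit. The points fill the field above the limit, from just over 5 kb on both sides to nearly 300 kb on 1 side.

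The 18 peaks with no other peak within 50 kb were the wider ones at the median. Their median width was 2680.5 bp (quartiles 2416.25 and 3432.5), whereas it was 2112 bp in the 79 with a neighbour at 10 kb or less, 2196.5 bp from 10 to 20 kb and 2171 bp from 20 to 50 kb. Their widths ran from 1575 to 4993 bp and so overlapped the other bands. Scores did not follow distance, with medians of 304, 299, 292 and 300.2 from the nearest band to the farthest. Width thus stood apart at the median in the most remote peaks only, a comparison of 18 peaks without a test.

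Only 3 isolated peaks had no other peak within 100 kb. A pair of them on 2R, at 15714129 to 15719121 (4993 bp, score 343) and 15999090 to 16003748 (4659 bp, score 316), faced each other across 280 kb without a peak. On their outer sides the gaps were 154 and 127 kb. The third lay on 3L at 4825038 to 4827966 (2929 bp, score 217), with gaps of 131 and 299 kb. The most isolated peaks of the other arms stood 85.2 kb from a neighbour on 2L (8825843 to 8829195, score 254), 84.1 kb on X (3376976 to 3381645, score 233) and 69.0 kb on 3R (26103678 to 26106260, score 347). Apart from the peaks on 2R and 3R, these remote peaks scored below the median of the class.

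The peaks next to the isolated peaks were of all strengths. The rule set how far away these neighbours lie and put no limit on their score. It also gave each of them a wide gap on the side facing the isolated peak. Over all arm peaks isolation varied with score. It was found in 6.18% of those scoring under 10, 24.1% from 50 to under 100 and 7.79% at 400 or more. The rule may therefore also have favoured neighbours of some scores, which was not tested. The nearest peak scored under 50 in 69 of 197 cases, 35.0% (28.4 to 42.1), from 50 to under 200 in 64, and 200 or more in 64, 32.5% (26.0 to 39.5). Over all peaks of the arms 37.8% scored under 50 and 35.6% scored 200 or more, so these shares of the neighbours were near those of the arms. The share from 50 to under 200 was not compared. For the 1764 strong peaks of ordinary width that were not isolated, the nearest peak scored 200 or more in 45.2% (42.8 to 47.5) and under 50 in 31.6% (29.4 to 33.8). The share with a strong nearest peak was thus lower in isolated peaks, and the intervals do not overlap. Strong peaks that lie close together can be each other's nearest peak, and each is then counted. The counts are therefore not independent, and the intervals are no test of this difference. The nearest peaks lie at unlike distances, at a median of 11.7 kb from isolated peaks and 0.287 kb from the others.

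**Figure D4:**
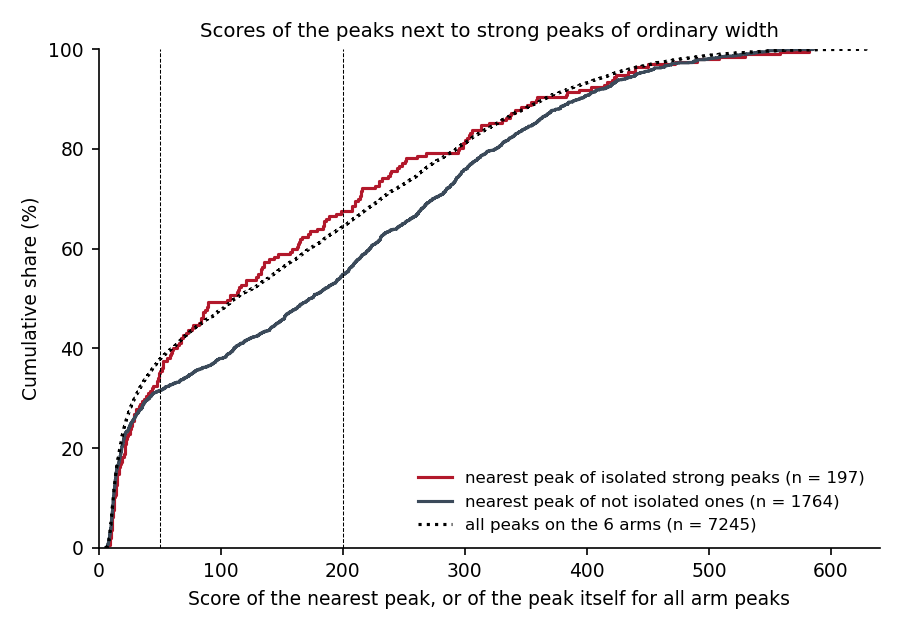
Cumulative share (vertical, %) of the score of the nearest peak (horizontal, caller's unit) for isolated peaks (red, n = 197) and for strong peaks of ordinary width that were not isolated (dark line, n = 1764), with the scores of all arm peaks dotted and dashed lines at 50 and 200. The red line follows the dotted one, and the dark line lies below both between 50 and 300.

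An isolated peak usually outscored both peaks beside it. It had the highest score of the 3 in 137 of 197 cases, 69.5% (62.6 to 75.9), and the lowest in 6. Among the not isolated peaks with 2 neighbours the highest score was found in 1125 of 1761, 63.9% (61.6 to 66.1). Both groups were chosen by a score of 200 or more, which 35.6% of all arm peaks reach. The selection by score therefore favours this rank in both groups. Both neighbours scored under 50 for 28 isolated peaks (14.2%) and 200 or more for 17 (8.63%). The corresponding shares were 9.99% and 16.0% in the not isolated peaks. A broad peak of 5000 bp or more was the nearest neighbour of 11 isolated peaks (5.58%) and of 4.37% of the others.

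The nearest peak was itself isolated in 78 of 197 cases (39.6%), and it belonged to the same class of isolated strong peaks in 13. In 86 cases (43.7%) it had a further peak within 1 kb. Over all arm peaks 14.9% were isolated and 69.3% had a peak within 1 kb, but the rule already fixes a gap of more than 5 kb on 1 side of each of these neighbours, so the shares are not comparable. Within 100 kb on either side an isolated peak had a median of 13 other peaks (quartiles 8 and 19), and a not isolated one 17 (quartiles 12 and 23). The nearest peak scoring 200 or more lay at a median of 21.7 kb from an isolated peak, and 41 isolated peaks (20.8%) had none within 50 kb. Isolation at the scale of 5 kb therefore did not place most of these peaks in regions empty of marks at 100 kb.

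Isolated strong peaks were found on all 6 arms, in unequal numbers. Arm 3R held 53 and 3L 52, followed by 2R with 38, 2L with 29, X with 24 and chromosome 4 with 1. Per Mb of span between the first and last peak, 3L had 2.12, 3R 1.90, 2R 1.80, 2L 1.26, X 1.07 and chromosome 4 0.776. As a share of the strong peaks of ordinary width on the same arm, isolated peaks made up 13.5% (10.3 to 17.4) on 3L, 10.7% (8.12 to 13.8) on 3R and 9.95% (7.14 to 13.4) on 2R. The share was 7.90% (5.36 to 11.2) on 2L and 7.32% (4.74 to 10.7) on X. Over the 4 large autosome arms it was 10.6% (9.11 to 12.2). Arm 3L had the highest share of the 5 large arms under each of the 9 other settings tried, whereas the lowest was X under 7 of them and 2L under the other 2. The intervals of all 5 large arms overlap one another, those of 3L and X included.

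The members of different arms also differed in score at the median. On 2L the 29 isolated peaks had a median score of 325 (quartiles 284 and 409), and on X the 24 had 273 (quartiles 223 and 325). Medians on 3L, 2R and 3R were 299, 292 and 282. The strong peaks of ordinary width that were not isolated did not share this order, with medians of 295 on 2L and 324 on X. At the median the isolated peaks thus scored higher than the others of their arm on 2L and lower on X. They also scored lower on 2R and 3R, where the others had medians of 311 and 307, and on 3L the medians were practically equal (298.7 and 298.8). Over the 5 large arms, median widths of isolated peaks ran from 2083 bp on 2R to 2374.5 bp on X.

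Along X the isolated peaks were unevenly placed. Outward of the midpoint of its span X held 21 of them among 165 strong peaks of ordinary width, 12.7% (8.05 to 18.8), and on the centromeric side of the midpoint 3 among 163, 1.84% (0.381 to 5.28). From 10793392 to 16504673, a stretch of 5.71 Mb with 382 peaks, X had no isolated strong peak of ordinary width. The 3 of the centromeric side lay at 16504674 to 16507322 (score 326), 18029371 to 18031723 (203) and 19653960 to 19656355 (304). The size of this contrast changed with the setting. With gaps measured only to peaks scoring 50 or more, 33 of 165 peaks (20%) were isolated on the outer side and 27 of 163, or 16.6% (11.2 to 23.2), on the centromeric side. With gaps above 2500 bp the shares were 16.4% on the outer and 8.59% on the centromeric side. With peaks 500 bp or less apart joined they were 22.2% of 108 peaks and 11.2% of 107. Joining changes the width and score of peaks, so these are not the same peaks as the 165 and 163. Peaks scoring under 50 made up 45.5% of all peaks on the outer side and 38.8% on the centromeric side, and their part in the contrast was not tested. This division of X was chosen with its values known.

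The other large arms showed smaller differences about their midpoints. The isolated shares on the outer and the centromeric side were 8.13% and 7.59% on 2L, 7.92% and 12.2% on 2R, 15.0% and 11.9% on 3L, and 12.4% and 9.06% on 3R, with overlapping intervals on each arm. In the 2 Mb next to the centromeric ends of the 5 large spans, 10 of 120 strong peaks of ordinary width were isolated, 8.33% (4.07 to 14.8). Of these 10, 2R and 3R held 4 each, 2L and 3L 1 each, and X held 0 of 12.

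**Figure D5:**
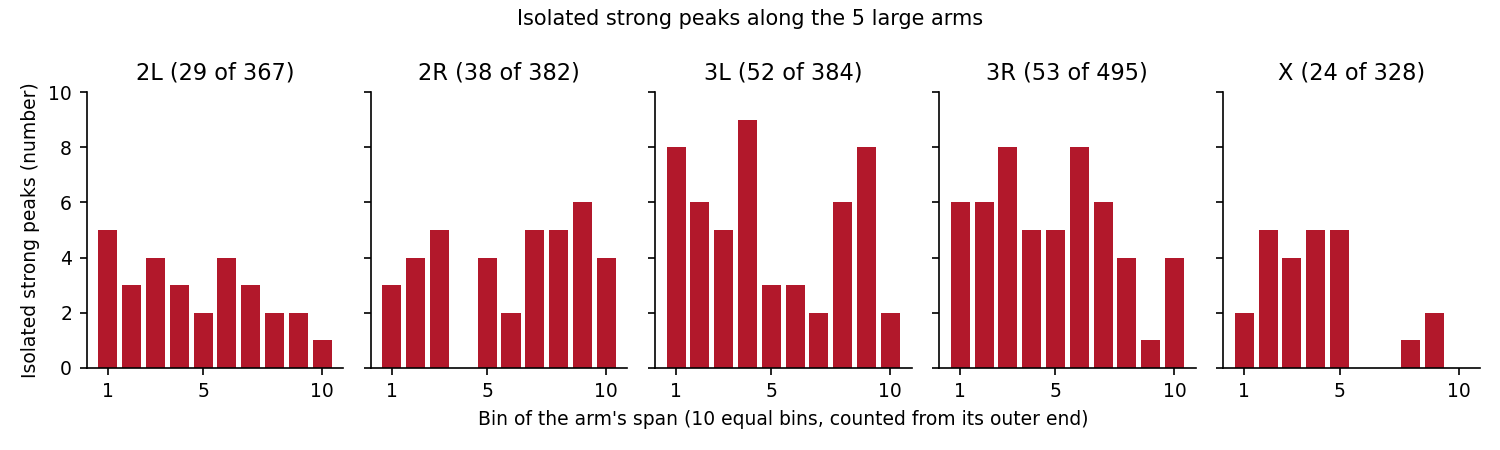
Number of isolated strong peaks (vertical) in 10 equal bins of the span of each of the 5 large arms, counted from the outer end (horizontal), with the number of isolated and of all strong peaks of ordinary width above each panel. On X 21 of 24 fall in the first 5 bins, while the other arms have isolated peaks on both sides of their midpoints.

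Isolated strong peaks were spread over most of the length of the large arms. Of 116 full windows of 1 Mb on the 5 large arms, 25 held none, 32 held 1, 34 held 2, 12 held 3 and 13 held 4 or more, with a mean of 1.68 (SD 1.39 over windows). The window with the most, 6, was the first Mb of 3L, which held 90 peaks in all. Their number per window had a Spearman's rho of 0.12 with the number of all peaks and 0.22 with that of strong peaks of ordinary width, over 116 windows that share 1 list. Windows without any had a median of 53 peaks, and those with 4 or more a median of 61. Crowded and sparse megabases thus both contained them.

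From one isolated peak to the next on an arm, the median distance was 359 kb (quartiles 132 and 760) with a median of 20 other peaks in between. In 16 of 191 successive pairs no other peak lay between the members, and in no case were 3 members consecutive. Of these 16 pairs 3L held 7, 2R 5, 3R 3 and X 1. The closest pair lay on 3L at 4185198 to 4186918 (1721 bp, score 232) and 4193915 to 4195964 (2050 bp, score 215), with 6996 bp between them. Pairs on 2R at 5053302 to 5055084 and 5062853 to 5064878, and on 3R at 7610571 to 7612565 and 7620617 to 7622739, stood 7.77 and 8.05 kb apart. The peaks of these 3 closest pairs had like scores, 236 and 230 on 2R and 251 and 221 on 3R, all below the median of the class.

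The longest stretches between successive isolated strong peaks were not stretches without the mark. On 2R 2.93 Mb from 12458751 to 15390541 held 205 peaks and no member, and on 3R 2.40 Mb from 955624 to 3356374 held 145. On 2L the longest stretch between 2 members was 1.75 Mb (12020972 to 13771015, 83 peaks), and on 3L 1.71 Mb (12844892 to 14553109, 68 peaks), shorter than the stretch at the centromeric end of 3L. Between the last member and the centromeric end of the span lay 2.76 Mb with 90 peaks on X, 1.80 Mb with 23 peaks on 3L and 1.31 Mb with 42 peaks on 2L. On 2R the corresponding stretch was 1.16 Mb with 30 peaks, and on 3R 0.310 Mb with 38. The stretch of 5.71 Mb on X was the longest of these on any arm.

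The genes and the sequence under these peaks are not given. Peak positions follow release 5 of the genome, whereas the gene table at hand follows release 6, and positions of unlike releases were not mixed.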

How the data were processed

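Sequenced were 2 H3K4me3 immunoprecipitated and 2 input libraries of white prepupae. BWA, MACS2, the BDGP5 assembly and CASAVA in versions 1.7.0.3 and 1.7.0.2 are named by the submitters' processing notes, and the peaks are attributed to MACS on FlyBase release 5, per the file headers and source column. The authors deposited 1 list with the position and score of each peak. The scale of the score, the caller's settings, the pooling of replicates and the use of input are not given in the sources used here. Depth and the precision it gives are unknown.

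Width was end minus start plus 1, and a gap the bases between neighbouring peaks. The first and last peak of an arm, with 1 gap only, could not be isolated. Spans ran from the first to the last peak of an arm, and peaks were placed by their midpoint. No test was run, because the rule uses the values of the list and the list has no replicates. Shares have 95% Clopper-Pearson intervals. The rule was tested on 20 simulated lists with known members, and in each list the number found equalled the number planted. The members, measures and settings were chosen with earlier results of these data known. On each large arm the text names the 2 highest scores and the widest, narrowest and most isolated member, with the single member of chromosome 4, the closest pair and the longest stretches without a member. Other regions named were chosen after their values were seen. Tables were handled with pandas 2.3.3 and numpy 2.4.6, intervals computed with scipy 1.17.1 and figures drawn with matplotlib 3.10.9, under Python 3.11.15.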

Additional observations from a re-analysis of the deposited data

How the results depend on the processing

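The limits of the class set its size, and 49 of 72 values of 8 results under 9 other settings stayed within 1.5 times the reported count or within the 95% binomial interval of the reported share or median. With gaps above 2500 bp, 318 peaks were isolated (16.2% of their class, median distance to the nearest peak 7.31 kb, 8.59% on the centromeric side of X). With gaps above 10000 bp, 118 were (6.02%, 20.0 kb, 7.27% on the outer side of X). Counting only neighbours scoring 50 or more gave 383 (19.5%), with a median width of 2309 bp, a strong nearest peak for 52.2%, and isolated shares of 20% on the outer and 16.6% on the centromeric side of X. Joining peaks 500 bp or less apart gave 359, or 29.0% of a class redrawn from the joined peaks. Their median width was 2793 bp and 41.2% had a strong nearest peak. On the outer and centromeric sides of X the shares were 22.2% and 11.2%. A score minimum of 150 put the median score at 262 and one of 250 at 325, and widths from 1000 bp put the median width at 2046.5 bp. By construction these settings change which peaks enter. The 197 isolated peaks were kept in full under 7 of these settings, which only loosen the rule and so could not lose any. The stricter score and gap left 147 and 118 of them. The sides of X were examined under these settings only after their values were known. No paired analysis was possible because peaks carry no value of a single library, for which reason no replicate could be left out. A description of genes or sequence was planned and not run, since no genome of release 5 was used here.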

Other observations

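Outside the 6 arms, 5 of 498 peaks on unplaced and heterochromatin sequences scored 200 or more with a width from 1500 to under 5000 bp, and 2 of these had gaps of more than 5000 bp on both sides. The scores of the 5 ran from 236 to 293. Unplaced sequences join fragments without a place on an arm, so gaps on those are not distances along a chromosome. Which of the sequences outside the arms hold the 5 peaks is not given here.

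Isolation followed the score unevenly over all 7245 arm peaks. It was found in 6.18% (3.86 to 9.29) of the peaks scoring under 10 and in 12.7% (11 to 14.6) of those from 10 to under 20. The share was 24.1% (21.0 to 27.4) from 50 to under 100 and 22.4% (19.1 to 26.0) from 100 to under 150. It was 12.0% (9.52 to 14.8) from 200 to under 250 and 7.79% (5.57 to 10.5) at 400 or more. Isolated strong peaks thus come from the part of the score range in which isolation was less common than at middle scores, as measured by these intervals over peaks.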
